A study of Mus musculus with 18 samples.

Results

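Glycolysis, lactate and pyruvate use was followed through 32 genes of mouse blastocysts, oocytes and cumulus cells, out of 52550 genes in the deposited table. The genes were chosen by symbol and cover the route from glucose uptake to pyruvate, the exchange of pyruvate with lactate, and the entry of pyruvate into the mitochondrial citrate cycle. A blastocyst is the embryo just before implantation, and cumulus cells are follicle cells attached to the oocyte. The study asked how breathing fine particulate matter (PM2.5) rather than filtered air changes the transcripts of each tissue, and the 18 RNA sequencing libraries fall into 6 groups of 3. The groups are blastocysts of the PM2.5 group and of the filtered-air group, oocytes of the PM2.5 group and of the filtered-air group, and cumulus cells of the PM2.5 group and of the filtered-air group. All are C57BL/6 mice, an inbred strain, with no transgene or other treatment named. The labels give no dose, length of exposure or age, and do not say whether a library holds 1 animal or a pool, nor how many cells it holds. Nothing says that replicates came from separate animals, so p-values reflect library-to-library spread alone, some of it possibly technical.

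Glycolysis breaks glucose down to pyruvate in the cytosol. Pyruvate is then either reduced to lactate by lactate dehydrogenase or carried into mitochondria and oxidised by the pyruvate dehydrogenase complex, which pyruvate dehydrogenase kinases switch off. Mouse oocytes are known for using glucose poorly and for living on pyruvate that their cumulus cells supply, whereas the blastocyst takes up glucose readily.

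Levels are given as deposited, as log2(x + 1), where x is the authors' normalized count, and differences are differences of these log2 levels, which understate the change of low genes. Summed x per library was 468613 to 493662 in blastocysts, 285842 to 310368 in oocytes and 425266 to 486902 in cumulus cells, with 16426 to 17987 genes above 0, while read depth per library is unknown. Log2 levels of 2 libraries correlated across genes at 0.978 to 0.987 within a group, at 0.973 to 0.986 between the groups of a tissue and at 0.573 to 0.839 between tissues. The tissue labels fit the markers: the oocyte growth factor Gdf9 averaged 11.26 and 11.09 in PM2.5 and filtered-air oocytes, against 0.71 and 0.52 in blastocysts and 3.88 and 3.43 in cumulus cells. The trophectoderm factor Cdx2 averaged 6.24 and 6.30 in blastocysts and at most 0.08 elsewhere, and the granulosa hormone subunit Inha averaged 8.70 and 7.77 in cumulus cells and at most 0.50 elsewhere. Other markers were less specific. Of 14 blastocyst markers, 12 (PM2.5) and 13 (filtered air) averaged at least 1 in blastocysts, and 4 did in each oocyte and cumulus group. Their summed x was 2049 to 2757 and 2200 to 3283 in blastocysts, against 332 to 415 and 310 to 352 in cumulus cells. Cumulus libraries also held leukocyte markers (summed x 107 to 196 in PM2.5 and 96.5 to 152 in filtered air) and red cell markers (1.99 to 669 and 1.93 to 894), and the follicle-stimulating hormone receptor Fshr was low in them (0.84 and 1.01). In such bulk libraries, fewer cells of a type and less RNA per cell cannot be told apart.

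The 32 genes differed in the tissue where they were highest. Averaged over the 6 libraries of a tissue, 21 members were highest in cumulus cells, 7 in blastocysts and 4 in oocytes, and in 17, 4 and 1 of these every library lay above every library of the other tissues. For 10 members (Slc2a1, Gpi1, Aldoc, Tpi1, Gapdh, Pgk1, Pgam1, Eno1, Pkm and Mpc2) the order was cumulus cells, then blastocysts, then oocytes, with no overlap at either step. Pdha1 and Pdhb, subunits of pyruvate dehydrogenase, ran from blastocysts through cumulus cells to oocytes without overlap, although rescaling to equal sums turned the filtered-air difference of Pdhb between oocytes and cumulus cells to 0.21 from -0.38. Ldhb alone ran from oocytes through cumulus cells to blastocysts. These orders were not counted over all genes, so they describe the members and do not show a trait particular to the pathway. Together the members held 0.152% ± 0.010 of the summed x in PM2.5 blastocysts and 0.153% ± 0.014 in filtered-air blastocysts, 0.309% ± 0.058 in PM2.5 oocytes and 0.462% ± 0.187 in filtered-air oocytes, and 0.523% ± 0.030 in PM2.5 cumulus cells and 0.462% ± 0.059 in filtered-air cumulus cells (SD, n = 3 each). The lactate dehydrogenase genes held 0.000749% and 0.00101% in PM2.5 and filtered-air blastocysts, 0.264% ± 0.058 and 0.415% ± 0.182 in oocytes, and 0.135% ± 0.005 and 0.104% ± 0.015 in cumulus cells. The 5 genes of late glycolysis held 0.0622% ± 0.0073 and 0.0613% ± 0.0082 in blastocysts, 0.0104% ± 0.0007 and 0.00871% ± 0.00212 in oocytes, and 0.252% ± 0.019 and 0.236% ± 0.019 in cumulus cells.

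**Figure D1:**
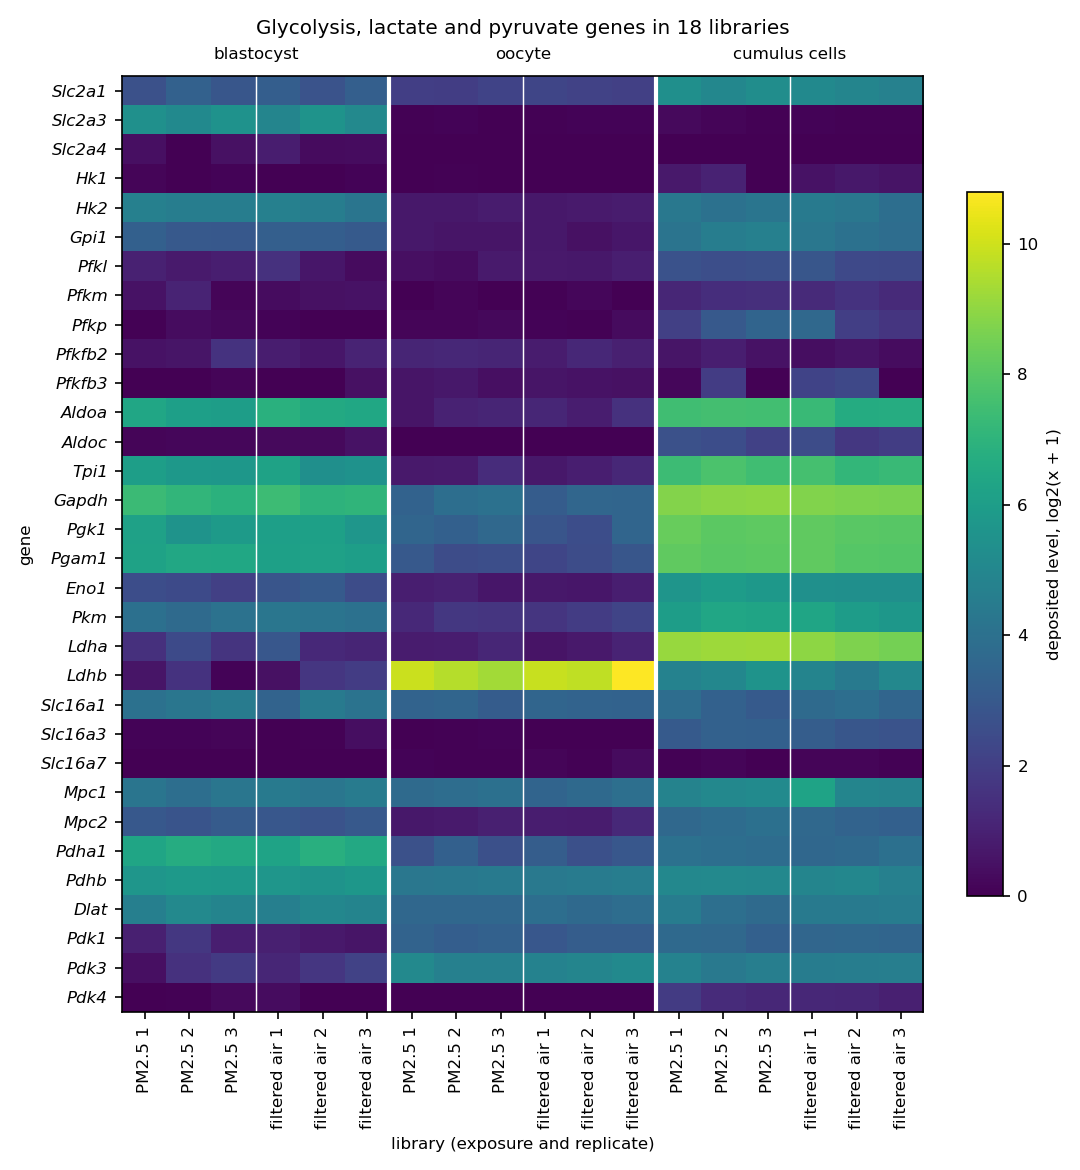
Deposited level, log2(x + 1), of the 32 genes (down the page, by role) in the 18 libraries (across, 3 per group, tissues separated by thick white lines). Aldoa and Tpi1 to Pkm are on average brightest in cumulus cells and darkest in oocytes, whereas Ldhb is bright in oocytes at 9.32 to 10.80 and Slc2a3 stands out in blastocysts at 4.92 to 5.54.

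Tissues were compared within each exposure with limma over all genes with a mean level of at least 1, and a difference was called at an adjusted p under 0.05 and a size of at least 1. Blastocysts against oocytes called 14 members higher and 3 lower of 22 tested in PM2.5, where 43.9% of all tested genes were higher and 31.3% lower (75.2% together). In filtered air 14 were higher and 3 lower of 21, where 43.8% of all genes were higher and 31.4% lower (75.2% together). Blastocysts against cumulus cells called 2 higher and 17 lower of 25 in PM2.5, against 22.5% and 21.6% of all genes (44.1% together). In filtered air 2 were higher and 15 lower of 25, against 24.1% and 21.8% of all genes (45.9% together). Oocytes against cumulus cells called 1 higher and 18 lower of 24 in PM2.5, against 30.7% and 43.1% of all genes (73.8% together). In filtered air 1 was higher and 17 lower of 25, against 31.2% and 41.9% (73.1% together). The share of members called in either direction was thus near that of all genes in the comparisons with oocytes, and the members differed from all genes mainly in how the calls split by direction. Some members passed the filter through a single tissue, being under 1 in the other. Where the level in that tissue was high, the call was largely fixed in advance and its p-value adds no support. Of the tissue differences given with p-values below, this holds for Slc2a3 and Hk2 in blastocysts against oocytes. It also holds for Aldoa there in PM2.5 and for Ldha in oocytes against cumulus cells. Not all such members were called, as with Pfkfb2 for blastocysts against oocytes in PM2.5. Among the members at 1 or more in both tissues, blastocysts against oocytes called 7 higher and 2 lower of 12 in PM2.5 (33.7% and 27.2% of all genes at that level) and 8 and 2 of 13 in filtered air (33.9% and 27.6%). Blastocysts against cumulus cells called 1 and 12 of 19 in PM2.5 (18.6% and 14.2%) and 1 and 10 of 19 in filtered air (20.7% and 14.3%). Oocytes against cumulus cells called 1 and 7 of 13 in PM2.5 (29.9% and 29.9%) and 1 and 7 of 14 in filtered air (29.7% and 29.2%). Summed x was lowest in oocytes. Rescaling each library to the same sum moved the median difference of all tested genes in filtered air. It moved to -0.05 from 0.55 for blastocysts against oocytes and to 0.05 from -0.44 for oocytes against cumulus cells. The rescaled values called 15 of 21 and 18 of 25 members, and 8275 and 8248 genes in all, against 7967 and 7850 genes as deposited.

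**Figure D2:**
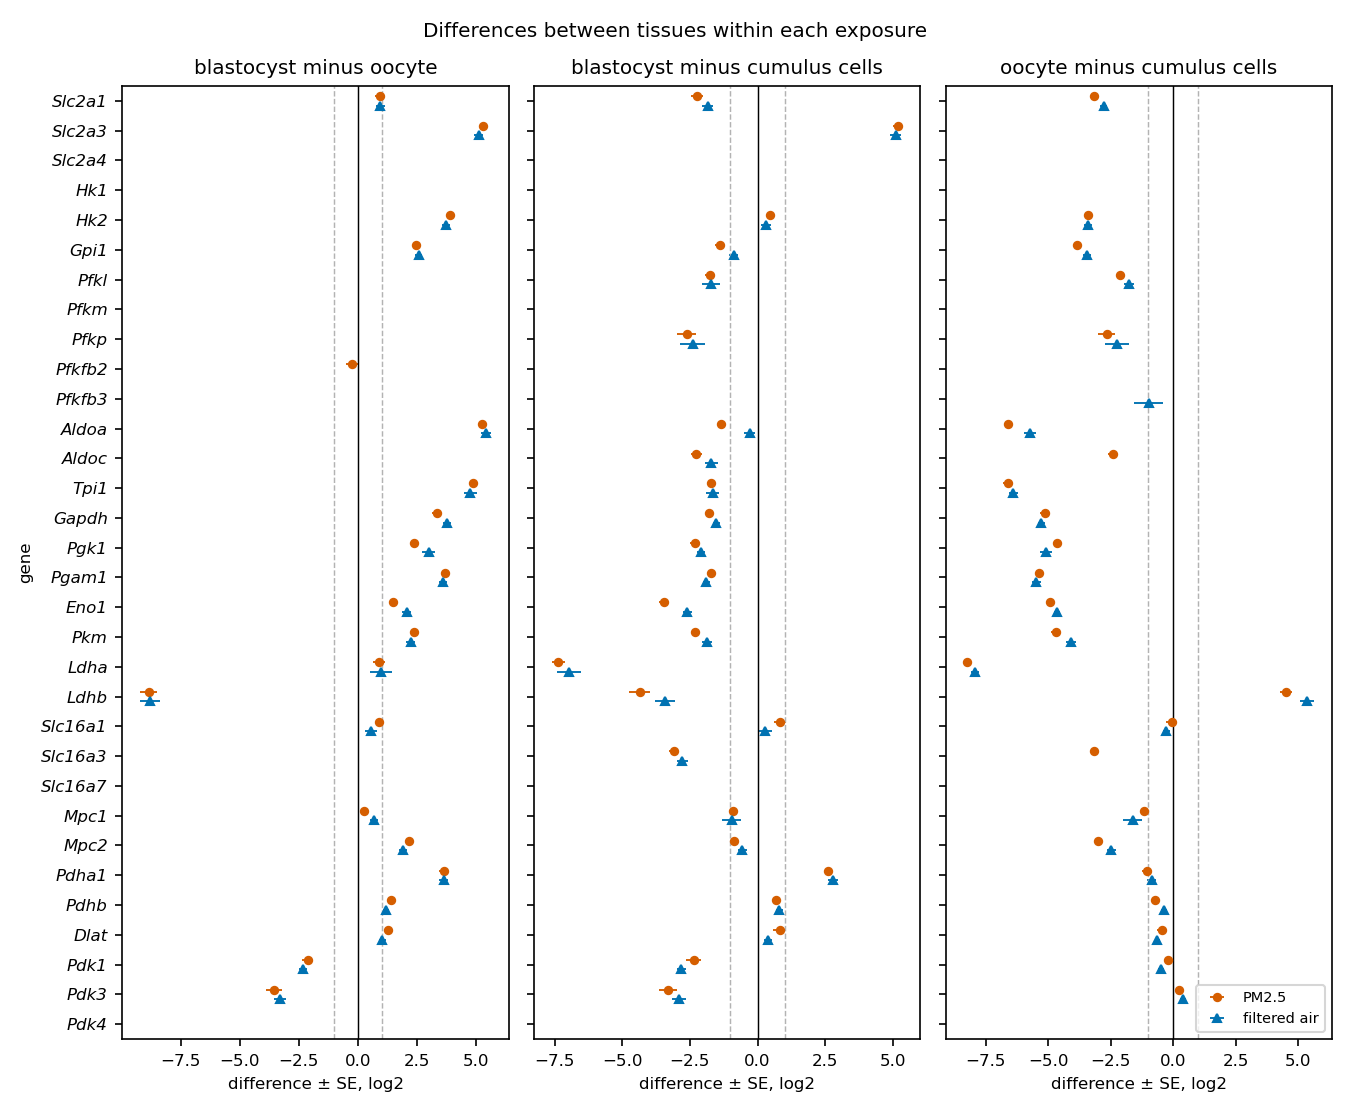
Differences between tissues (log2 ± SE) for the tested genes, in PM2.5 (circles, above) and filtered air (triangles, below), with dashed lines at a difference of 1. No point is drawn where a group is listed at 0 in all its libraries. The exposures give nearly the same pattern, with Ldha and Ldhb on opposite sides of 0 for oocytes minus cumulus cells.

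Glucose transporters differed by tissue and by isoform. Slc2a1 encodes GLUT1, the widely expressed glucose carrier. It stood at 2.66, 3.37 and 2.89 in PM2.5 blastocysts and 3.24, 2.74 and 3.27 in filtered-air blastocysts, at 1.99, 1.95 and 2.17 in PM2.5 oocytes and 2.24, 2.14 and 2.06 in filtered-air oocytes, and at 5.37, 4.99 and 5.31 in PM2.5 cumulus cells and 5.13, 4.92 and 4.74 in filtered-air cumulus cells. Every cumulus library was above every blastocyst library, and every blastocyst library above every oocyte library. Oocytes were lower than cumulus cells by a difference of -3.19 (SE 0.15, limma adjusted p = 4.22e-07) in PM2.5 and -2.78 (SE 0.14, limma adjusted p = 1.14e-06) in filtered air. Slc2a3, on chromosome 6 at 122727809 to 122802363 (mm10), encodes GLUT3, a carrier of high affinity. Its levels were 5.40, 5.11 and 5.51 in PM2.5 blastocysts and 4.92, 5.54 and 5.08 in filtered-air blastocysts, and at most 0.26 in the 12 other libraries. Blastocysts exceeded oocytes by 5.29 (SE 0.15, limma adjusted p = 4.86e-08) in PM2.5 and 5.10 (SE 0.19, limma adjusted p = 2.22e-07) in filtered air. Slc2a3 passed the filter there through blastocysts alone. Slc2a4, the insulin-responsive GLUT4, was listed at 0 in every oocyte and cumulus library and at 0.43, 0.00 and 0.47 in PM2.5 blastocysts and 0.85, 0.33 and 0.35 in filtered-air blastocysts. The difference of Slc2a3 minus Slc2a1 within a library ran from 1.68 to 2.79 in blastocysts, from -2.17 to -1.87 in oocytes and from -5.24 to -4.68 in cumulus cells. Such differences between genes depend on the length scale of x, so only their change between tissues is read here. Where 1 gene of a pair is near 0, as Slc2a3 in oocytes and cumulus cells, the difference mostly gives the level of the other gene.

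Hexokinases commit glucose to the cell by phosphorylating it. Hk2, the inducible form, stood at 4.69, 4.59 and 4.60 in PM2.5 blastocysts and 4.69, 4.57 and 4.21 in filtered-air blastocysts. In oocytes it was at 0.71, 0.70 and 0.84 (PM2.5) and 0.72, 0.77 and 0.84 (filtered air), and in cumulus cells at 4.31, 4.01 and 4.19 (PM2.5) and 4.39, 4.29 and 3.91 (filtered air). Blastocysts and cumulus cells overlapped, and both lay clear of oocytes, with blastocysts higher than oocytes by 3.88 (SE 0.13, limma adjusted p = 8.95e-08) in PM2.5 and 3.72 (SE 0.17, limma adjusted p = 5.61e-07) in filtered air. Against oocytes, Hk2 passed the filter through blastocysts alone. Hk1, the form found in most tissues, was at most 0.15 in blastocysts and 0.05 in oocytes, and in cumulus cells it stood at 0.74, 1.05 and 0.04 (PM2.5) and 0.51, 0.68 and 0.59 (filtered air). Gpi1, which turns glucose 6-phosphate into fructose 6-phosphate, averaged 3.09 ± 0.18 and 3.17 ± 0.11 in PM2.5 and filtered-air blastocysts, 0.63 ± 0.04 and 0.61 ± 0.12 in oocytes, and 4.47 ± 0.28 and 4.05 ± 0.22 in cumulus cells (SD, n = 3).

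Phosphofructokinase is the main control step of glycolysis. Its liver-type subunit Pfkl was at 0.99, 0.78 and 0.92 in PM2.5 blastocysts and 1.52, 0.64 and 0.32 in filtered-air blastocysts, at 0.44, 0.34 and 0.79 in PM2.5 oocytes and 0.72, 0.70 and 0.93 in filtered-air oocytes, and at 2.70, 2.62 and 2.65 in PM2.5 cumulus cells and 2.91, 2.39 and 2.34 in filtered-air cumulus cells. Its muscle-type subunit Pfkm was at 0.52, 1.06 and 0.14 in PM2.5 blastocysts and 0.37, 0.49 and 0.53 in filtered-air blastocysts, at most 0.19 in oocytes, and at 1.17, 1.41 and 1.47 in PM2.5 cumulus cells and 1.30, 1.59 and 1.27 in filtered-air cumulus cells. The platelet-type subunit Pfkp was at most 0.34 in blastocysts and 0.33 in oocytes, and at 2.03, 3.0 and 3.48 in PM2.5 cumulus cells and 3.64, 2.02 and 1.65 in filtered-air cumulus cells. All 3 subunits were thus higher in every cumulus library than in any library of the other tissues, and Pfkp spread most among them.

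The bifunctional enzymes Pfkfb2 and Pfkfb3 make and remove fructose 2,6-bisphosphate, the activator of phosphofructokinase. Pfkfb2 stood at 0.53, 0.60 and 1.57 in PM2.5 blastocysts and 0.85, 0.65 and 1.08 in filtered-air blastocysts, at 1.14, 1.2 and 1.13 in PM2.5 oocytes and 0.84, 1.2 and 0.94 in filtered-air oocytes, and at 0.60, 0.91 and 0.53 in PM2.5 cumulus cells and 0.39, 0.57 and 0.35 in filtered-air cumulus cells. The tissues overlapped for Pfkfb2. Pfkfb3 was at 0.00, 0.01 and 0.15 in PM2.5 blastocysts and 0.00, 0.00 and 0.48 in filtered-air blastocysts, and at 0.45 to 0.71 in the 6 oocyte libraries. In cumulus cells it was at 0.19, 1.90 and 0.08 (PM2.5) and 2.19, 2.33 and 0.03 (filtered air), so that 3 of the 6 cumulus libraries were near 2 and the others near 0 with no split by exposure.

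Aldolases split the sugar into triose phosphates. Aldoa was at 6.41, 6.08 and 6.03 in PM2.5 blastocysts and 6.84, 6.54 and 6.42 in filtered-air blastocysts, at 0.62, 1.02 and 1.1 in PM2.5 oocytes and 1.14, 0.86 and 1.53 in filtered-air oocytes, and at 7.49, 7.57 and 7.54 in PM2.5 cumulus cells and 7.34, 6.65 and 6.70 in filtered-air cumulus cells. Blastocysts exceeded oocytes by 5.26 (SE 0.18, limma adjusted p = 1.04e-07) in PM2.5 and 5.42 (SE 0.21, limma adjusted p = 2.58e-07) in filtered air. In PM2.5, Aldoa passed the filter for this pair through blastocysts alone. Blastocysts were below cumulus cells in PM2.5 by a difference of -1.36 (SE 0.14, limma adjusted p = 6.51e-05), whereas in filtered air the difference was -0.30 (SE 0.21, limma adjusted p = 0.246) and the tissues overlapped. Aldoc, the brain-type aldolase, was at 0.15, 0.20 and 0.18 in PM2.5 blastocysts and 0.29, 0.27 and 0.52 in filtered-air blastocysts, at 0 in 5 of the 6 oocyte libraries, and at 2.66, 2.55 and 2.10 in PM2.5 cumulus cells and 2.5, 1.73 and 1.97 in filtered-air cumulus cells. The triose phosphate isomerase Tpi1 averaged 5.84 ± 0.17 and 5.70 ± 0.47 in PM2.5 and filtered-air blastocysts, 0.96 ± 0.35 and 0.95 ± 0.26 in oocytes, and 7.56 ± 0.18 and 7.36 ± 0.24 in cumulus cells.

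The late steps, which yield ATP and pyruvate, followed 1 pattern. Gapdh, which oxidises glyceraldehyde 3-phosphate, averaged 7.12 ± 0.24 and 7.16 ± 0.23 in PM2.5 and filtered-air blastocysts, 3.77 ± 0.34 and 3.40 ± 0.24 in oocytes, and 8.91 ± 0.08 and 8.68 ± 0.05 in cumulus cells. The phosphoglycerate kinase Pgk1 averaged 5.86 ± 0.32 and 5.97 ± 0.26, then 3.5 ± 0.17 and 2.98 ± 0.48, then 8.16 ± 0.12 and 8.06 ± 0.09 in the same order of groups. Pgam1, the phosphoglycerate mutase, averaged 6.39 ± 0.13 and 6.13 ± 0.08 in blastocysts, 2.71 ± 0.27 and 2.54 ± 0.32 in oocytes, and 8.10 ± 0.07 and 8.02 ± 0.14 in cumulus cells. In all of these the tissues stood clear of each other. The enolase Eno1 averaged 2.34 ± 0.27 and 2.81 ± 0.28 in blastocysts, 0.84 ± 0.17 and 0.75 ± 0.15 in oocytes, and 5.79 ± 0.17 and 5.40 ± 0.03 in cumulus cells. Pkm, the pyruvate kinase, averaged 3.93 ± 0.17 and 4.14 ± 0.11 in blastocysts, 1.55 ± 0.29 and 1.92 ± 0.27 in oocytes, and 6.25 ± 0.20 and 6.01 ± 0.32 in cumulus cells. For these 5 genes oocytes were below cumulus cells by differences of -5.39 to -4.66 in PM2.5 and -5.48 to -4.09 in filtered air.

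Near-identical processed copies can share reads with 8 members, and 15 named copies are in the table. Of the x of Mpc1 and its copy Mpc1-ps together, the copy held 67.9% in blastocysts, 63.3% in oocytes and 60.5% in cumulus cells. Eno1b held 48.8%, 18.0% and 25% of the sum with Eno1, and Pgk1-rs7 held 11.9%, 14.5% and 9.92% of the sum with Pgk1. Aldoart2 held 0.208%, 30.7% and 0.00543% of the sum with Aldoa. The low Aldoa level of oocytes is thus less certain than its levels in blastocysts and cumulus cells. Pgam1-ps2 held 7.94%, 11.8% and 7.30% of the sum with Pgam1. The levels of these members are uncertain by that much, and summing the copies with their members left the number of members called the same in all 12 comparisons.

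Lactate dehydrogenase showed the widest split. The enzyme is built from A and B subunits, encoded by Ldha and Ldhb, and interconverts pyruvate and lactate. The B subunit prevails in heart and in mouse oocytes, and the A subunit in glycolytic tissues. Ldha was at 1.48, 2.42 and 1.64 in PM2.5 blastocysts and 2.94, 1.25 and 1.11 in filtered-air blastocysts, at 0.83, 0.86 and 1.14 in PM2.5 oocytes and 0.59, 0.74 and 1.09 in filtered-air oocytes, and at 9.15, 9.24 and 9.26 in PM2.5 cumulus cells and 8.97, 8.71 and 8.56 in filtered-air cumulus cells. Ldhb was at 0.61, 1.59 and 0.10 in PM2.5 blastocysts and 0.48, 1.69 and 1.91 in filtered-air blastocysts, at 9.93, 9.61 and 9.32 in PM2.5 oocytes and 9.88, 9.78 and 10.80 in filtered-air oocytes, and at 4.78, 5.0 and 5.57 in PM2.5 cumulus cells and 4.88, 4.45 and 5.03 in filtered-air cumulus cells. Ldhb thus separated all 3 tissues, and Ldha separated cumulus cells from the others. Ldha was lower in oocytes than in cumulus cells by a difference of -8.27 (SE 0.13, limma adjusted p = 3.16e-08) in PM2.5 and -7.94 (SE 0.17, limma adjusted p = 4.74e-08) in filtered air. It passed the filter there through cumulus cells alone, so the call was largely fixed in advance. Ldhb was higher in oocytes by 4.51 (SE 0.24, limma adjusted p = 6.98e-07) and 5.37 (SE 0.29, limma adjusted p = 1.76e-06). Blastocysts were below oocytes in Ldhb by -8.86 (SE 0.37) and -8.79 (SE 0.43), and were low in both subunits. Within a library, Ldha minus Ldhb ran from -0.80 to 2.46 in blastocysts, from -9.71 to -8.18 in oocytes and from 3.54 to 4.37 in cumulus cells.

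Material of one tissue in the other's libraries was looked at through markers. As linear x, Ldhb in cumulus cells was 4.33% of its oocyte level in PM2.5 and 2.25% in filtered air, whereas the 11 of 12 oocyte markers with enough signal (mean x of at least 7 in oocytes) stood at 0.396% to 0.938% in PM2.5 and 0.0805% to 0.579% in filtered air. Ldha in oocytes was 0.157% and 0.178% of its cumulus level, and the 7 of 14 granulosa markers above the same level in cumulus cells ranged from 0.104% to 4.03% (median 0.222%) in PM2.5 and from 0% to 5.02% (median 0.191%) in filtered air. Ldhb in cumulus cells was thus above every oocyte marker looked at, and Ldha in oocytes lay within the range of the granulosa markers. Gapdh in oocytes (2.69% and 2.36%) and Pgk1 (3.62% and 2.70%) lay above the medians of the granulosa markers. Both were under the highest of these markers, Nr5a2 (4.03% and 5.02%). Slc2a1 (8.52% and 11.6%) and Slc16a1 (93.4% and 81.3%) lay above all 7.

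**Figure D3:**
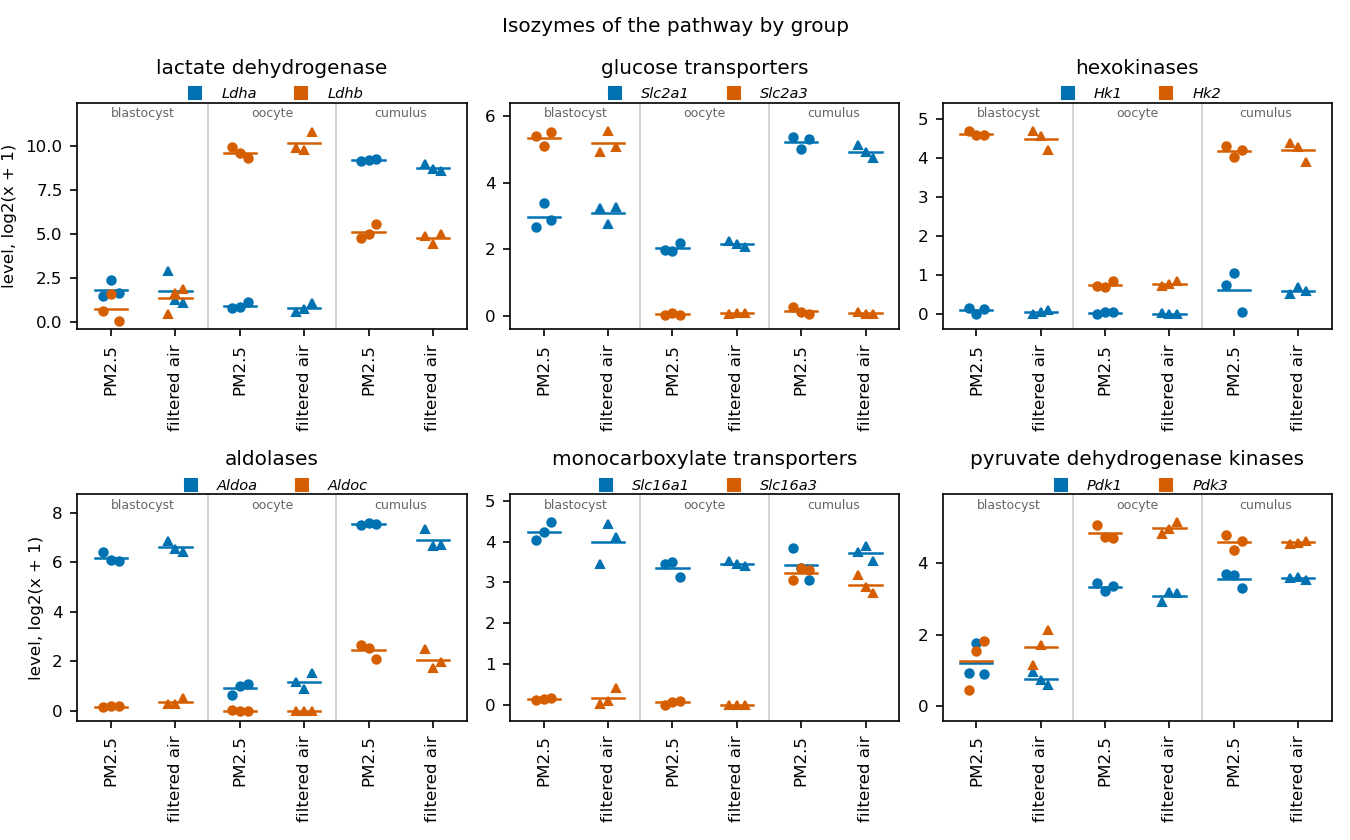
Levels, log2(x + 1), of 6 pairs of related genes in every library (circles PM2.5, triangles filtered air, lines the group means of 3). Ldha and Ldhb trade places between oocytes and cumulus cells, Slc2a3 is above 4.9 in blastocysts and under 0.3 elsewhere, and Pdk1 and Pdk3 are low in blastocysts.

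A promoter window each of Ldha and Ldhb is shown because the levels of these genes run in opposite directions, and that of Pgk1 as an example of the 10 genes that share 1 tissue order. Each is the 250 bases before a transcript start, 5′ to 3′ on the gene's strand, from RefSeq on GRCm38.p6 (mm10). Capitals mark ACGTG or GCGTG on either strand (on the other strand CACGT or CACGC), the core letters bound by hypoxia-inducible factors, and CACGTG counts as ACGTG on both strands. The Ldha window is chr7:46845554-46845803 on the plus strand, inside the span of the gene and before one of its transcript starts. That of Ldhb is chr6:142507958-142508207 on the minus strand and that of Pgk1 is chrX:106186850-106187099 on the plus strand, both directly before the gene.
Ldha: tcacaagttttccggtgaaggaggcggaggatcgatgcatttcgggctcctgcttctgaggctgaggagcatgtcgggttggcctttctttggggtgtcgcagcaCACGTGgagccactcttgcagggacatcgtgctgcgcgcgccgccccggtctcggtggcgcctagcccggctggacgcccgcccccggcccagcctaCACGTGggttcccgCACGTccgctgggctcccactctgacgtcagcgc
Ldhb: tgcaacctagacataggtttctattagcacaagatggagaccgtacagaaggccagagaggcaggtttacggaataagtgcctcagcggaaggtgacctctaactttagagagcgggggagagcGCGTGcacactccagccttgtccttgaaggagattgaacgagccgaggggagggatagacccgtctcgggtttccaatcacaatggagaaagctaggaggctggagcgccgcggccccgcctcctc
Pgk1: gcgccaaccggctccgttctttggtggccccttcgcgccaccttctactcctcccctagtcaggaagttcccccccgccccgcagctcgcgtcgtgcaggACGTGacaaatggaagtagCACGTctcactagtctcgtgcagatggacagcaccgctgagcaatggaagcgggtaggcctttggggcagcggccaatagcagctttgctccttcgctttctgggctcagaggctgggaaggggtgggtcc
This Ldha window held 5 matches, that of Ldhb 1 and that of Pgk1 2. A second Ldha window, before another transcript start at chr7:46846832-46847081 and not printed, held 1 match, as many as that of Ldhb. Over the 29 members with such windows, 36 of 45 windows held a match, against 38.6% of 32851 windows of all genes, and the GC content differed too, with a median of 61.6% in the members' windows and 52.4% in all. The matches describe the letters of these windows and not the binding of a factor.

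Monocarboxylate transporters carry lactate and pyruvate across the cell membrane. Slc16a1 (MCT1) was at 4.04, 4.24 and 4.48 in PM2.5 blastocysts and 3.45, 4.44 and 4.11 in filtered-air blastocysts, at 3.45, 3.5 and 3.13 in PM2.5 oocytes and 3.52, 3.45 and 3.41 in filtered-air oocytes, and at 3.85, 3.36 and 3.05 in PM2.5 cumulus cells and 3.75, 3.90 and 3.54 in filtered-air cumulus cells. The tissues overlapped, and no tissue difference of Slc16a1 reached a size of 1, though blastocysts exceeded oocytes in PM2.5 by 0.89 (SE 0.17, limma adjusted p = 0.00157). Slc16a3 (MCT4), the exporter of lactate in glycolytic cells, was at most 0.41 in blastocysts and 0.09 in oocytes, and at 3.07, 3.35 and 3.30 in PM2.5 cumulus cells and 3.20, 2.88 and 2.75 in filtered-air cumulus cells. Slc16a7 (MCT2) was listed at 0 in all blastocyst libraries and was at most 0.32 in oocytes and 0.15 in cumulus cells. Slc16a3 minus Slc16a1 ran from -4.37 to -3.43 in blastocysts, from -3.52 to -3.03 in oocytes and from -1.01 to 0.25 in cumulus cells. With Slc16a3 near 0 in blastocysts and oocytes, the difference there mostly gives the level of Slc16a1.

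The mitochondrial pyruvate carrier is a pair of the proteins Mpc1 and Mpc2. Mpc1 averaged 4.12 ± 0.18 and 4.37 ± 0.13 in PM2.5 and filtered-air blastocysts, 3.86 ± 0.12 and 3.70 ± 0.24 in oocytes, and 5.01 ± 0.17 and 5.33 ± 0.80 in cumulus cells. The wide spread of the last group came from replicate 1, at 6.25 against 4.90 and 4.83 in the other libraries. Mpc2 averaged 2.96 ± 0.15 and 2.89 ± 0.12 in blastocysts, 0.81 ± 0.13 and 0.99 ± 0.24 in oocytes, and 3.82 ± 0.17 and 3.46 ± 0.17 in cumulus cells. The oocyte was thus below both other tissues in Mpc2 without overlap, by -3.01 (SE 0.15) and -2.47 (SE 0.17) against cumulus cells.

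Pyruvate dehydrogenase turns pyruvate into acetyl-CoA. Its E1 alpha subunit Pdha1, on chromosome X, averaged 6.51 ± 0.16 and 6.54 ± 0.26 in PM2.5 and filtered-air blastocysts, 2.88 ± 0.39 and 2.91 ± 0.26 in oocytes, and 3.91 ± 0.10 and 3.76 ± 0.21 in cumulus cells. Blastocysts exceeded cumulus cells in Pdha1 by 2.60 (SE 0.14, limma adjusted p = 2.01e-06) in PM2.5 and 2.78 (SE 0.18, limma adjusted p = 6.33e-06) in filtered air, which with Slc2a3 made up the 2 members called higher there. The E1 beta subunit Pdhb spread less, at 5.76 ± 0.08 and 5.66 ± 0.08 in blastocysts, 4.35 ± 0.07 and 4.48 ± 0.10 in oocytes, and 5.07 ± 0.02 and 4.86 ± 0.16 in cumulus cells. Dlat, the E2 subunit, averaged 4.87 ± 0.22 and 4.83 ± 0.16 in blastocysts, 3.62 ± 0.01 and 3.82 ± 0.13 in oocytes, and 4.06 ± 0.42 and 4.45 ± 0.06 in cumulus cells.

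Among the kinases that inactivate pyruvate dehydrogenase, Pdk1 and Pdk3 were lowest in blastocysts and Pdk4 was not. Pdk1 was at 0.93, 1.76 and 0.90 in PM2.5 blastocysts and 0.95, 0.73 and 0.60 in filtered-air blastocysts, at 3.44, 3.22 and 3.36 in PM2.5 oocytes and 2.92, 3.18 and 3.18 in filtered-air oocytes, and at 3.69, 3.67 and 3.31 in PM2.5 cumulus cells and 3.58, 3.61 and 3.52 in filtered-air cumulus cells. Pdk3 was at 0.46, 1.55 and 1.83 in PM2.5 blastocysts and 1.16, 1.71 and 2.13 in filtered-air blastocysts, at 5.06, 4.71 and 4.69 in PM2.5 oocytes and 4.81, 4.94 and 5.15 in filtered-air oocytes, and at 4.79, 4.37 and 4.60 in PM2.5 cumulus cells and 4.54, 4.57 and 4.61 in filtered-air cumulus cells. For both kinases blastocysts lay below the other tissues without overlap, and oocytes overlapped cumulus cells. Blastocysts were below oocytes by -2.14 (SE 0.25) and -2.33 (SE 0.17) for Pdk1 and by -3.54 (SE 0.34) and -3.30 (SE 0.26) for Pdk3. Pdk4, the kinase induced in fasting, was listed at 0 in every oocyte library, was at most 0.37 in blastocysts, and stood at 1.87, 1.35 and 1.21 in PM2.5 cumulus cells and 1.2, 1.17 and 0.94 in filtered-air cumulus cells. Pdk2, a further isozyme outside the 32 genes, was listed at 0 in every oocyte library, was at most 0.82 in blastocysts and stood at 0.97 to 1.81 in cumulus cells.

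Neighbouring pathways were read from 9 lists, whose counts stand beside the shares of all genes given above. Of the 20 genes of the tricarboxylic acid cycle, 12 were called higher and 0 lower of 19 tested in blastocysts against oocytes in each exposure, and 1 higher and 13 lower (PM2.5) or 2 and 11 (filtered air) of 19 in oocytes against cumulus cells. The share called for blastocysts against oocytes was thus below that of all genes. Among genes of the cycle at 1 or more in both tissues, blastocysts against oocytes had 6 higher and 0 lower of 13 in PM2.5 and 7 and 0 of 14 in filtered air. Oocytes against cumulus cells had 1 higher and 7 lower of 13 in PM2.5 and 1 and 6 of 13 in filtered air. Idh3b, a subunit of mitochondrial isocitrate dehydrogenase, averaged 5.73 ± 0.23 and 5.52 ± 0.11 in PM2.5 and filtered-air blastocysts, 0.24 ± 0.22 and 0.15 ± 0.15 in oocytes, and 4.59 ± 0.16 and 4.45 ± 0.07 in cumulus cells. The pentose phosphate pathway had 2 higher and 6 lower of 9 in oocytes against cumulus cells in each exposure. At 1 or more in both tissues it had 2 higher and 1 lower of 4 in PM2.5 and 2 and 2 of 5 in filtered air, with no excess of lower calls. Its transketolase Tkt, under 1 in oocytes, averaged 0.57 ± 0.22 and 0.43 ± 0.11 there, against 3.83 ± 0.27 and 3.82 ± 0.06 in cumulus cells. Bypass enzymes and other isozymes had 3 higher and 2 lower of 8 (PM2.5) and 6 and 2 of 9 (filtered air) in oocytes against cumulus cells. At 1 or more in both tissues they had 2 higher and 0 lower of 5 (PM2.5) and of 3 (filtered air). Among them Bpgm, which makes 2,3-bisphosphoglycerate, averaged 1.32 ± 0.18 and 0.95 ± 0.14 in blastocysts, 8.15 ± 0.05 and 8.05 ± 0.13 in oocytes, and 2.08 ± 0.14 and 1.42 ± 0.19 in cumulus cells.

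In blastocysts the gluconeogenic phosphatase Fbp2 averaged 8.34 ± 0.22 and 8.13 ± 0.15 in PM2.5 and filtered air, against 1.11 ± 0.24 and 0.75 ± 0.39 in oocytes, and it was listed at 0 in every cumulus library. Tigar, a phosphatase that lowers fructose 2,6-bisphosphate, averaged 5.61 ± 0.16 and 5.52 ± 0.28 in blastocysts, 2.69 ± 0.08 and 2.83 ± 0.07 in oocytes, and 1.07 ± 0.22 and 0.87 ± 0.10 in cumulus cells. Among regulators of glycolytic genes, 7 were called higher and 2 lower of 12 in blastocysts against oocytes in each exposure, a share called close to that of all genes (75.2%), and at 1 or more in both tissues 2 were higher and 2 lower of 6. Hif1a, the oxygen-regulated factor, averaged 3.65 ± 0.29 and 3.86 ± 0.25 in blastocysts, 6.97 ± 0.20 and 7.06 ± 0.12 in oocytes, and 7.05 ± 0.45 and 7.67 ± 0.10 in cumulus cells, and its relative Epas1 averaged 5.46 ± 0.11 and 5.78 ± 0.38, then 0.27 ± 0.14 and 0.34 ± 0.25, then 3.25 ± 0.49 and 2.57 ± 0.25. Bsg, the chaperone of MCT1 and MCT4, averaged 7.37 ± 0.12 and 7.14 ± 0.14 in blastocysts, 3.11 ± 0.11 and 3.33 ± 0.58 in oocytes, and 7.42 ± 0.17 and 7.17 ± 0.34 in cumulus cells. Gfpt2 and Ugdh, which feed hyaluronan synthesis during cumulus expansion, belong to a list with 1 higher and 5 lower of 7 in oocytes against cumulus cells in each exposure. At 1 or more in both tissues that list had 1 higher and 2 lower of 4 in each exposure. Gfpt2, under 1 in oocytes, averaged 0.14 ± 0.11 and 0.16 ± 0.13 there, against 3.94 ± 0.12 and 3.96 ± 0.15 in cumulus cells.

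PM2.5 was then compared with filtered air within each tissue, over genes with a mean level of at least 3. In blastocysts, 0 of 15 tested members were called at an adjusted p under 0.05 in limma, as were 0% of all 4834 tested genes, while 1 member and 191 genes had an unadjusted p under 0.05. The 3 members with the smallest p, which did not pass, were Aldoa, Pgam1 and Mpc1. Aldoa, with the library values given above, averaged 6.17 ± 0.20 in PM2.5 and 6.60 ± 0.22 in filtered air (difference -0.43, SE 0.16, limma adjusted p = 0.998). Pgam1 was at 6.24, 6.49 and 6.45 in PM2.5 and 6.16, 6.19 and 6.04 in filtered air (0.26, SE 0.13, limma adjusted p = 0.998). The groups did not overlap for these 2 members, Aldoa lower and Pgam1 higher, where 8.52% of all genes did not overlap (3.62% higher and 4.90% lower). Mpc1 was at 4.20, 3.92 and 4.24 in PM2.5 and 4.39, 4.22 and 4.49 in filtered air, with overlap. The median difference was -0.03 over the 15 members and -0.01 over all tested genes.

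In oocytes, 0 of 9 tested members were called in limma, against 0.221% of all genes (0.0490% higher and 0.172% lower), and 0 members had an unadjusted p under 0.05, as did 340 of all 4080 genes. Pgk1, Ldhb and Gapdh had the smallest p and did not pass. Pgk1 was at 3.53, 3.31 and 3.65 in PM2.5 and 2.86, 2.57 and 3.51 in filtered air (0.52, SE 0.25, limma adjusted p = 0.626). For Ldhb the means were 9.62 ± 0.31 and 10.15 ± 0.56 (-0.53, SE 0.28, limma adjusted p = 0.652), with the highest value in filtered-air replicate 3. Gapdh was at 3.38, 3.92 and 4.01 in PM2.5 and 3.13, 3.56 and 3.51 in filtered air. All 3 overlapped. The groups did not overlap for Pdk1 (higher in PM2.5) and Dlat (lower), 2 of 9 members, against 15.3% of all genes (5.02% higher and 10.3% lower), and the median difference was -0.10 over the members and -0.04 over all tested genes.

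In cumulus cells, 0 of 21 tested members were called in limma, against 0.167% of all genes (0.146% higher and 0.0209% lower), and 3 members, Ldha, Aldoa and Eno1, had an unadjusted p under 0.05, as did 1114 of all 4780 tested genes (23.3%). Ldha averaged 9.22 ± 0.06 in PM2.5 and 8.75 ± 0.20 in filtered air (0.47, SE 0.14, limma adjusted p = 0.185), and each of the 3 PM2.5 libraries was above each filtered-air library. For Aldoa the means were 7.53 ± 0.04 and 6.90 ± 0.38 (0.63, SE 0.19, limma adjusted p = 0.185), and filtered-air replicate 1, at 7.34, lay close to the PM2.5 libraries. Eno1 was at 5.62, 5.96 and 5.77 in PM2.5 and 5.44, 5.37 and 5.39 in filtered air (0.39, SE 0.13, limma adjusted p = 0.185). Groups did not overlap for 6 members, all higher in PM2.5 (Aldoa, Gapdh, Eno1, Ldha, Mpc2 and Pdhb), where 26.3% of all tested genes did not overlap, 17.0% higher and 9.29% lower. The median difference was 0.21 over the members, 16 positive and 5 negative, and 0.09 over all tested genes, whose signs were not counted. Rescaling each library to the same sum moved the median of all tested genes to 0.02, so part of the excess of positive signs can be one of scale.

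Some values moved with exposure in the cumulus libraries beside these genes. Summed x of the 9 stromal and smooth muscle markers was 5.29 to 6.70 in PM2.5 and 3.08 to 3.69 in filtered air, with Lum at 0 in both. That of the 5 oviduct markers was 1.55 to 2.83 in PM2.5 and 0 to 0.222 in filtered air, with Foxj1 and Sprr2f at 0 in both. That of the 14 granulosa markers was 837 to 985 in PM2.5 and 694 to 816 in filtered air. The other marker lists overlapped between the exposures. The stromal sum was as high in oocytes (5.78 to 8.40 in PM2.5 and 6.29 to 8.25 in filtered air). The oviduct sum was higher in blastocysts (41.1 to 55.1 and 43.9 to 59.4), so neither sum is specific to the cells it is named for. The part of these shifts in the result was not tested. Without PM2.5 cumulus replicate 1, 1 of the 21 tested members, Dlat, was called lower. Of all 4780 tested genes 559 were then called, 299 higher and 260 lower, against 8 with all libraries. With libraries weighted by their spread, 12 of the 21 members were called, 10 higher and 2 lower. Of all 4780 genes 2236 were called by these weights, 1315 higher and 921 lower, so the calls were not particular to the members.

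**Figure D4:**
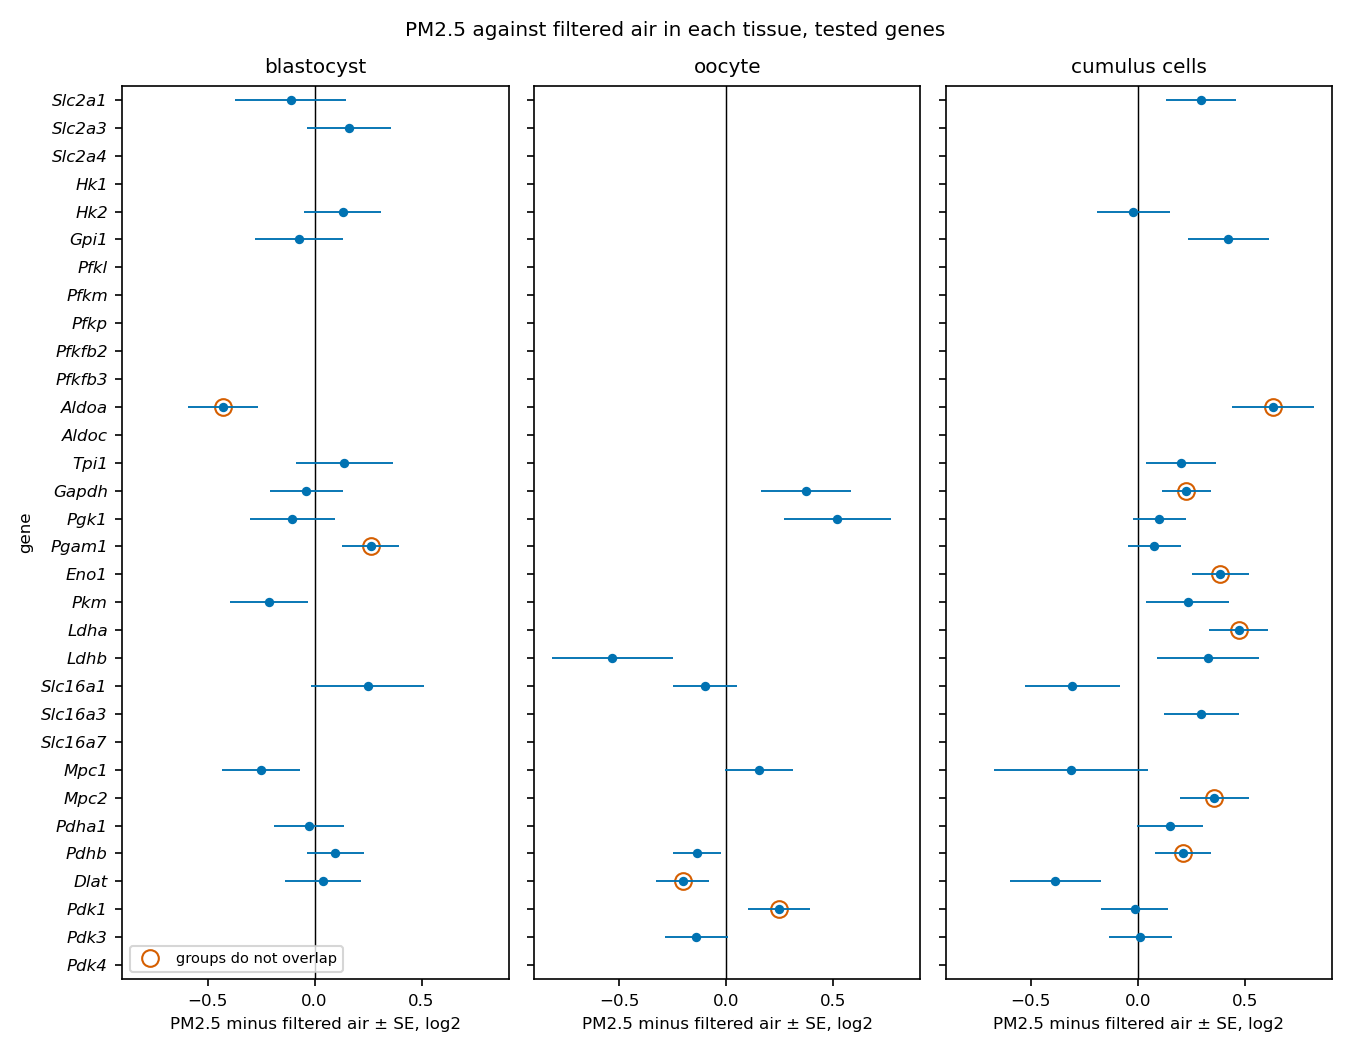
PM2.5 minus filtered air (log2 ± SE, 3 libraries per group) for the members tested in each tissue, with rings where the groups do not overlap. In cumulus cells 16 of 21 points lie above 0, where the median of all tested genes was also above 0, at 0.09. In any tissue 0 points passed the test.

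Differences of differences, fitted over all 18 libraries, compared the PM2.5 effect of one tissue with that of another. No member was called in limma: 0 of 6 for blastocysts minus oocytes (0% of all 2054 genes), 0 of 14 for blastocysts minus cumulus cells (0.259%, with 0.115% higher and 0.144% lower) and 0 of 9 for oocytes minus cumulus cells (0.395%, with 0.0987% higher and 0.296% lower). Before adjustment, 0, 2 and 1 members had a p under 0.05, as did 136 of 2054, 590 of 3479 and 309 of 2027 genes, so the members were not more often under it than all genes. Aldoa, with -1.06 (SE 0.29, limma adjusted p = 0.142) for blastocysts minus cumulus cells, had exposure differences of -0.43 in blastocysts and 0.63 in cumulus cells. Gpi1 had -0.50 (SE 0.23, limma adjusted p = 0.283) for the same pair of tissues, and Pdhb -0.35 (SE 0.15, limma adjusted p = 0.282) for oocytes minus cumulus cells. In the 9 lists of neighbouring pathways, PM2.5 against filtered air called 0 of 53 tested genes in blastocysts, 0 of 36 in oocytes and 0 of 51 in cumulus cells. The differences of differences called 0 of 27, 0 of 43 and 0 of 26, with 2 lists holding no tested gene and most of the rest a few, so these counts say little.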

How the data were processed

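The libraries hold RNA of mouse blastocysts, oocytes and cumulus cells, made, per the labels' protocols, by lysis, direct reverse transcription, tailing with terminal transferase and amplification, then paired-end sequencing. The authors deposited 1 table of log2(x + 1) values, where x is a normalized count per gene, per the file headers and values. The submitters' processing notes name FastQC, Cuffnorm, DESeq 1.22.1 and mm10 with no role or order, and no source used here gives the aligner or the annotation. Raw reads could not be recovered from x (0.168% of 13658 cumulus genes came out whole within 0.05 reads), so depth is unknown and no count model was used. Levels of different genes are not ranked against each other, and differences or sums over genes are read only across tissues, since x still changed with gene length (slope of log10 x on log10 length -0.36 and -0.39 in 2 sets of genes).

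The log2 values were tested with limma 3.58.1 (R 4.3.3; trend, Benjamini-Hochberg adjustment over all tested genes) and checked on simulated data. PM2.5 was compared with filtered air within each tissue over genes with a mean of at least 3. Tissues were compared within each exposure over genes with a mean of at least 1, in both cases with at least 3 libraries above 0. Calls needed an adjusted p under 0.05, and between tissues also a difference of at least 1. The members and all lists were chosen with earlier results of these data known, so counts over them are descriptions. All 32 members are accounted for, with values in every library for related isozymes, the 3 smallest p per exposure comparison where none was called, and up to 3 genes per pathway list. Aldoa has a second row, at 0 in all libraries, which was not used. Alternatives were other scalings, pseudocounts of 0.1 and 10, other filters, variance models, a replicate block, copies summed with members and leaving out each library. Sequences and gene positions are from RefSeq on GRCm38.p6. Tables and figures used Python 3.11.15, numpy 2.4.6, pandas 2.3.3, scipy 1.17.1 and matplotlib 3.10.9.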

Additional observations from a re-analysis of the deposited data

How the results depend on the processing

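The 107 called tissue differences of the members kept their direction in all 1849 values recomputed, of which 56 lost the call, 33 of them with a pseudocount of 10. Pdha1 lost it most often, under 7 alternatives for oocytes against cumulus cells in PM2.5, where Mpc1 lost it under 4. For blastocysts against oocytes, Dlat lost it under 6 in filtered air and 4 in PM2.5, and Pdhb under 4 and 2. These calls of genes of pyruvate entry are thus the least firm. Of the 35 differences tested and not called, 9 turned sign under at least 1 alternative, mostly under other scalings, namely Slc16a1, Mpc1, Pdhb, Dlat and Pdk1 in comparisons with oocytes. A pseudocount of 10 left 11 of 21 members called for blastocysts against oocytes in filtered air. The calls over all genes fell there to 4037 from 7967. Keeping only genes with a mean of at least 5 left 3, 7 and 4 members called in filtered air and 3, 8 and 5 in PM2.5, since fewer members were tested. The order here and below is blastocysts against oocytes, blastocysts against cumulus cells and oocytes against cumulus cells. Calls over all genes fell too, to 728, 570 and 666 in filtered air and to 706, 522 and 677 in PM2.5. Leaving out each library in turn gave 17 to 19, 19 to 21 and 18 to 19 members in PM2.5 and 16 to 17, 17 to 18 and 18 to 19 in filtered air. Calls over all genes were then 7883 to 7965, 4641 to 4745 and 7915 to 7998 in PM2.5. In filtered air they were 7891 to 7975, 4815 to 4917 and 7783 to 7852. For PM2.5 against filtered air, leaving out each library called 0 to 0 members in blastocysts and oocytes and 0 to 1 in cumulus cells. It called 0 to 0 for all 3 differences of differences. In cumulus cells, library quality weights called 12 of 21 members and 2236 of 4780 genes. There 1 fit of all 18 libraries called 0 members and 103 genes, against 8 genes in the reported fit. Without PM2.5 replicate 1, 1 member and 559 genes were called, and without filtered-air replicate 1, 14 genes. For blastocysts minus cumulus cells, the difference of differences called 1 of 14 members (Aldoa) with a pseudocount of 10, among 29 of 3479 genes. With quality weights it called 3 (Gpi1, Aldoa and Slc16a1), among 721 genes. For oocytes minus cumulus cells it called 1 of 9 (Pgk1) with quality weights, among 336 of 2027 genes. The cause was not tested. With the replicate number as a block, members called were 0 in each exposure comparison and each difference of differences. Between tissues they were 17, 19 and 19 in PM2.5 and 17, 17 and 18 in filtered air. The block called 7948, 4771 and 8002 of all genes between tissues in PM2.5 and 8002, 4934 and 7873 in filtered air. In cumulus cells the block called 3 genes in all. To look for pairing, the levels of each library were taken as deviations from its group mean. These deviations correlated at -0.24 to 0.18 between same-numbered libraries. In no comparison was every pair over 0.1, so the numbers were not taken to pair the libraries. By these deviations, each library correlated best with its own number in 6 of 6 cases for blastocysts against cumulus cells in filtered air. The same held for oocytes against cumulus cells in PM2.5. At a mean of at least 5, the differences of differences with oocytes tested 0 members, among 456 genes for blastocysts minus oocytes and 419 for oocytes minus cumulus cells, so they say nothing of the members. Unknown depth limits what can be said of members near 0.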

Other observations

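Outside the 32 genes, some genes of glucose handling were tied to 1 tissue, named here after their values were seen. Slc45a3, a sugar transporter, averaged 1.27 ± 0.30 and 1.48 ± 0.56 in PM2.5 and filtered-air blastocysts, 9.63 ± 0.05 and 9.61 ± 0.09 in oocytes, and 2.76 ± 0.27 and 2.23 ± 0.38 in cumulus cells (SD, n = 3). Gyg, the glycogenin that primes glycogen synthesis, averaged 3.74 ± 0.50 and 3.71 ± 0.18 in blastocysts, 7.46 ± 0.11 and 7.70 ± 0.01 in oocytes, and 4.04 ± 0.10 and 3.42 ± 1.16 in cumulus cells. Prps1, which makes phosphoribosyl pyrophosphate for nucleotide synthesis, averaged 8.90 ± 0.31 and 9.01 ± 0.33 in blastocysts, 0.73 ± 0.42 and 1.08 ± 0.83 in oocytes, and 3.96 ± 0.27 and 4.22 ± 0.28 in cumulus cells. All 3 genes were called in limma for blastocysts against oocytes and for oocytes against cumulus cells in both exposures. So were 73.1% to 75.2% of all tested genes, and calls of genes picked by their values add no support. Prps1 was under 1 in PM2.5 oocytes.

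Txnip, a protein that limits glucose uptake, averaged 0.93 ± 1.37 and 1.32 ± 1.11 in PM2.5 and filtered-air blastocysts, 8.38 ± 0.10 in filtered-air oocytes, and 0.21 ± 0.07 and 0.42 ± 0.14 in PM2.5 and filtered-air cumulus cells. In PM2.5 oocytes 1 library was at 6.33, below 8.30 and 8.56 in the others, and the exposure difference there was -0.65 (SE 0.53, limma adjusted p = 0.747). Pdp1, the phosphatase that reactivates pyruvate dehydrogenase, averaged 0.16 ± 0.17 and 0.72 ± 0.45 in blastocysts, 5.02 ± 0.21 and 5.27 ± 0.10 in oocytes, and 1.98 ± 1.47 and 2.98 ± 1.90 in cumulus cells. Its isozyme Pdp2 had another order, with 3.05 to 3.70 in blastocysts, 0.48 to 1.09 in oocytes and 1.78 to 2.40 in cumulus cells.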
